A study of Mus musculus with 10 samples.

Results

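Interferon-inducible GTPases were followed through epithelial crypts of the mouse distal colon in 3 groups: untreated mice (control, 3 libraries), mice treated with DSS (4 libraries) and mice treated with DSS following treatment with AOM (AOM+DSS, 3 libraries). DSS, dextran sulfate sodium, injures the colon lining and inflames it, and AOM, azoxymethane, is a carcinogen; the submitters describe the last group as a cancer brought about by inflammation and AOM. The 9 genes were chosen by symbol, as rows present in both deposited tables: 5 guanylate-binding proteins (Gbp2, Gbp3, Gbp4, Gbp6 and Gbp7) and 4 immunity-related GTPases (Irgm1, Irgm2, Igtp and Iigp1), out of 23364 genes. Crypts were shaken from the tissue in EDTA, and poly(A) RNA was sequenced without strand information. The sources used here give no strain, sex, age, dose or time. No label says whether the libraries of a group are from different animals, and p-values therefore reflect the scatter of these libraries alone.

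Both families are made in little amount by resting cells and in quantity after interferon, above all interferon gamma. Guanylate-binding proteins coat vacuoles and bacteria inside the cell and help to break them open. Among immunity-related GTPases, Iigp1 is an effector that gathers on vacuoles made by pathogens, while Irgm1, Irgm2 and Igtp sit on the membranes of the cell itself and hold the effectors inactive there. Genes that respond to interferons often carry GAS or ISRE elements near their start, and Irf1 and related factors bind ISRE elements.

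The stretches upstream of the start site are shown because these elements link the genes to interferon. RefSeq promoter windows of build GRCm38.p6, from 250 bases before to 50 after the start, were found for 6 of the 9 genes; Gbp4, Gbp6 and Iigp1 had none in the table used. Capitals mark the letters of an ISRE (GAAANNGAAA, or TTTCNNTTTC on the other strand) or of a GAS (TTCNNNGAA, which reads the same on both strands). Neighbouring matches can overlap, as in Gbp3 and Irgm1. All are written 5′ to 3′ on the strand of the gene.
Gbp2: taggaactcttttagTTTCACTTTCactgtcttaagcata
Gbp3: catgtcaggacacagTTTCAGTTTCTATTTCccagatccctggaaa
Gbp7: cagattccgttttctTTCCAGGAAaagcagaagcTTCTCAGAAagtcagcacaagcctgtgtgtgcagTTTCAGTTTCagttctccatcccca
Irgm1: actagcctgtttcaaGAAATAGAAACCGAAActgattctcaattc
Irgm2: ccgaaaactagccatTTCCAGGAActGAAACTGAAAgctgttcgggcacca
Igtp: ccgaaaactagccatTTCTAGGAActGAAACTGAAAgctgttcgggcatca

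These stretches lie at chr3:142620589-142620628 (Gbp2), chr3:142559984-142560029 (Gbp3) and chr3:142530215-142530307 (Gbp7) on the plus strand. Irgm1 lies at chr11:48871421-48871465 on the minus strand, and Irgm2 at chr11:58214887-58214937 and Igtp at chr11:58199496-58199546 on the plus strand. All 6 genes held ISRE letters in a window, against 3.44% of 32851 windows of the same length in the table. That share counts windows and not genes: the 6 genes had 7 windows, and a further window of Gbp3 held no ISRE letters. GAS letters were in 3 of the 6 (Gbp7, Irgm2 and Igtp), against 8.3% of windows, and 0.454% of all windows held both. The ISRE letters began 59 bases before the start in Gbp2, 53 in Gbp7, 64 in Irgm2 and 34 in Igtp. Irgm2 and Igtp, which neighbour each other, shared an unbroken stretch of 55 bases in their windows. A match of letters is a description of the sequence and does not show that a factor binds there.

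The deposited tables give group means, from which whole reads per library were recovered for all 9 genes in all 10 libraries. Libraries carry a letter within their group, a for the deepest, that is not the replicate number of the labels. Size factors, which express relative depth, ran from 0.645 (DSS library d) to 1.34 (AOM+DSS library a), and the thinnest value of a member was 16 reads, for Gbp4 in control library c. Epithelial keratins were abundant in every group: Krt8 had mean normalized reads of 69346 in control, 73034 in DSS and 57412 in AOM+DSS, and neither Krt8 nor Krt19 was called in the authors' deposited tables. Transcripts of other cell types were present too and are given beside the results they move with. In such bulk RNA, fewer cells of a type and less RNA per cell cannot be told apart.

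All 9 GTPases had higher means in DSS than in control and higher means again in AOM+DSS. Values are normalized reads, that is, reads divided by the size factor of the library.

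Gbp2, which coats bacteria and vacuoles, was at 472, 1023 and 405 in control libraries a, b and c, at 1483, 1341, 1735 and 2061 in DSS libraries a to d, and at 4375, 6417 and 2351 in AOM+DSS libraries a to c. The 3 groups did not overlap, and the AOM+DSS libraries spread 2.73-fold from lowest to highest. Gbp3 was at 114, 246 and 183 in control, at 705, 506, 787 and 577 in DSS, and at 1452, 1506 and 1022 in AOM+DSS. Its groups were also separate, with AOM+DSS library c the lowest of its group. Gbp4 was at 20.3, 132 and 16.9 in control, at 684, 241, 203 and 155 in DSS, and at 1050, 1552 and 376 in AOM+DSS. This was the most scattered member: control library b stood 7.81-fold above control library c, and DSS library a was above AOM+DSS library c.

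Gbp6 was at 120, 222 and 135 in control, at 662, 405, 581 and 420 in DSS, and at 1391, 1268 and 768 in AOM+DSS, with no overlap between groups. Its values are uncertain as to the gene, since 90.2% of the 50-base words of its longest coding transcript (GENCODE M21) also occur in Gm43302, an annotated gene that overlaps 1726 bases of its exons. Gbp7 was at 232, 444 and 214 in control, at 967, 748, 609 and 625 in DSS, and at 1386, 1411 and 1091 in AOM+DSS. Its groups were separate as well, and 12.9% of its words occur elsewhere, as do 12.8% of those of Gbp4.

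Irgm1, which restrains the effector GTPases, was at 1068, 1290 and 867 in control, at 2348, 1911, 2499 and 2297 in DSS, and at 3538, 3610 and 2678 in AOM+DSS. It was the least scattered gene in control, where the highest library was 1.49-fold above the lowest. Irgm2, of the same regulatory group, was at 648, 1095 and 457 in control, at 2113, 1669, 1881 and 1843 in DSS, and at 3202, 2992 and 2575 in AOM+DSS. Igtp, the third regulator, was at 349, 621 and 286 in control, at 1873, 1196, 1651 and 1843 in DSS, and at 3423, 3473 and 2338 in AOM+DSS. The groups of all 3 regulators were separate. Igtp and Irgm2 overlap by 162 exon bases, and 12.3% of the words of Igtp occur in Irgm2. Iigp1, the effector, was at 50.2, 235 and 62.5 in control, at 858, 277, 656 and 534 in DSS, and at 2419, 2897 and 1256 in AOM+DSS. Its highest control library, b, came close to its lowest DSS library, also b.

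**Figure D1:**
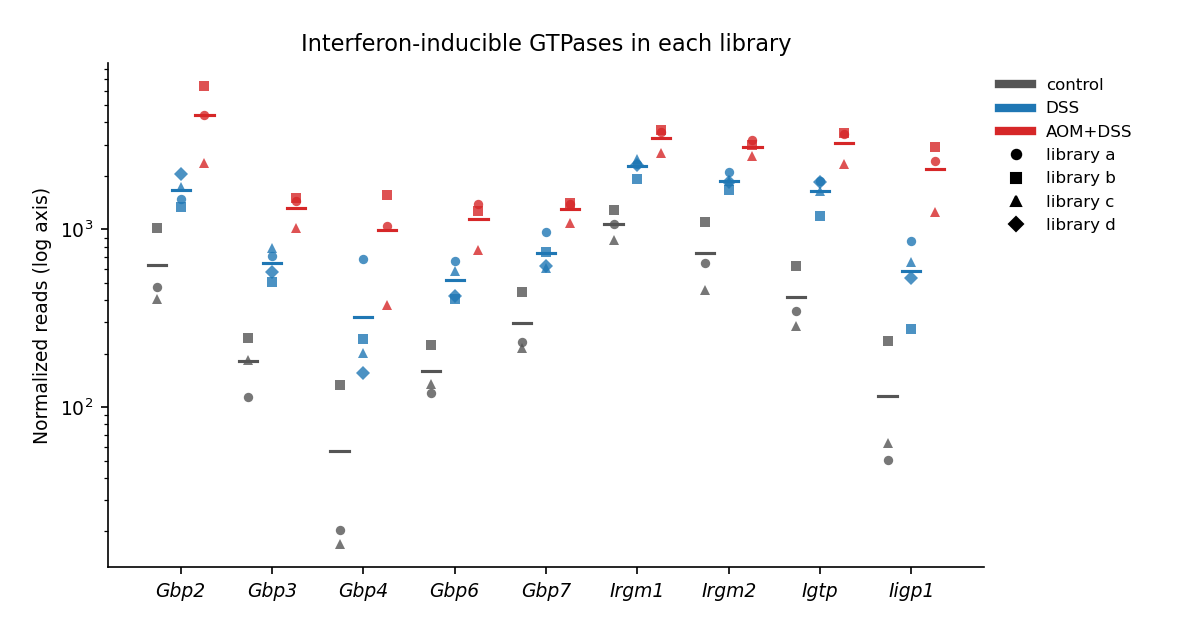
Normalized reads (log axis) of the 9 GTPases in every library; colours are groups, symbols are libraries and bars are group means. The 3 groups step upward for each gene, and Gbp4 is the gene in which a DSS library (a, 684) lies above an AOM+DSS library (c, 376).

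The same libraries tended to be high or low across the genes. Control library b was the highest control library for 9 of 9 genes and AOM+DSS library c the lowest of its group for 9 of 9. DSS library a was the highest of its group for 6 genes and DSS library b the lowest for 7. Summed over the 9 genes, control libraries a to c held 3072, 5309 and 2626 normalized reads, DSS libraries a to d 11691, 8294, 10601 and 10355, and AOM+DSS libraries a to c 22235, 25126 and 14455. The sums of the 3 groups did not overlap.

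The first comparison asked how inflammation changed the crypts. In DSS, 7 of the 9 GTPases rose against control in the authors' deposited table (DESeq, Benjamini-Hochberg adjusted p under 0.05), where 2.61% of 18099 genes were called higher. The authors' deposited table gives Igtp as 3.92-fold higher (adjusted p = 5.19e-09), Gbp3 as 3.56-fold (adjusted p = 3.85e-08) and Irgm2 as 2.56-fold (adjusted p = 7.85e-08). Irgm1 rose least by the authors' deposited table, by a fold of 2.11 with an adjusted p = 6.66e-05, and Iigp1 rose by a fold of 5.01 with an adjusted p = 0.011. Gbp6 and Gbp7 rose 3.26-fold and 2.48-fold in the authors' deposited table. Gbp2 (2.61-fold, adjusted p = 0.293) and Gbp4 (5.67-fold, adjusted p = 0.132) did not pass in the authors' deposited table.

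For 5 genes whose reads came from the printed means alone (Gbp3, Gbp4, Gbp6, Gbp7 and Iigp1), the authors' p was recomputed from those reads with a dispersion pooled over all 10 libraries, AOM+DSS included. The DSS reads of Gbp2 were themselves chosen by that p, so its match is no check. With these reads, the pooled dispersion of Gbp2 was 0.267, against 0.0706 over the control and DSS libraries alone. In limma on log2(normalized reads + 1), fitted to control and DSS, 8 of 9 genes passed, where 3.24% of genes fitted were higher. Gbp2 differed by 1.49 ± 0.30 (log2, SE, limma adjusted p = 0.0238), higher in 4 of 4 DSS libraries than in any control library. Gbp4 differed by 2.86 ± 0.74 and did not pass (limma adjusted p = 0.0585). Every DSS library lay above every control library for 9 of 9 genes, as for 10% of genes fitted. The limma count rests on the control libraries: without control library a or without control library c it was 2 of 9, and it was 9 of 9 without control library b.

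The second comparison asked how the crypts of the cancer model differed from untreated ones. All 9 GTPases rose in AOM+DSS against control in the authors' deposited table, where 5.54% of 18334 genes were called higher, and limma also called 9 of 9 (10.8% of genes fitted). The authors' deposited table gives folds from 3.05 for Irgm1 (adjusted p = 6.75e-11) to 18.9 for Iigp1 (adjusted p = 2.18e-07), with a median of 7.19. In the authors' deposited table Gbp4 rose by a fold of 17.6 with an adjusted p = 0.00385, and Gbp2 by a fold of 6.92 with an adjusted p = 0.000678. Gbp3, Gbp6 and Igtp rose 7.33-fold, 7.19-fold and 7.35-fold, and Gbp7 and Irgm2 4.37-fold and 3.99-fold, in the authors' deposited table. Every AOM+DSS library lay above every control library for 9 of 9 genes, as for 20.7% of genes fitted.

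The treatments were compared with each other by limma, since no deposited table sets them side by side. In AOM+DSS, 3 of the 9 GTPases were higher than in DSS (limma adjusted p under 0.05), where 1.90% of 17251 genes fitted were higher. Gbp3 differed by 1.04 ± 0.20 (log2, SE, limma adjusted p = 0.0346), Irgm2 by 0.64 ± 0.13 (limma adjusted p = 0.0454) and Iigp1 by 1.94 ± 0.40 (limma adjusted p = 0.0476). The 3 AOM+DSS libraries were above all 4 DSS libraries for each of these. The DSS reads of Irgm2 were settled by the authors' p, which allowed only reads of low enough scatter. Its SE is therefore not independent of that choice. The other 6 did not pass: Gbp6, Igtp and Gbp7 had limma adjusted p of 0.0649, 0.0654 and 0.0665, Gbp2 0.0774, Irgm1 0.149 and Gbp4 0.252. All 9 had an unadjusted limma p under 0.05, but no share over all genes fitted is given here for that count. The ratios of means of the 9 genes ran from 1.45 (Irgm1) to 3.77 (Iigp1), with a median of 2.06. Groups did not overlap for 8 of 9 genes, as for 8.32% of genes fitted, and Gbp4 was the exception. These calls lay near the threshold. The count was 0 without DSS library b, DSS library d, AOM+DSS library a or AOM+DSS library b, 1 without DSS library c, 5 without DSS library a and 6 without AOM+DSS library c; a fit of all 3 groups together also gave 0. In these fits with a count of 0, 8 or 9 genes had an unadjusted limma p under 0.05, again without a share over all genes.

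**Figure D2:**
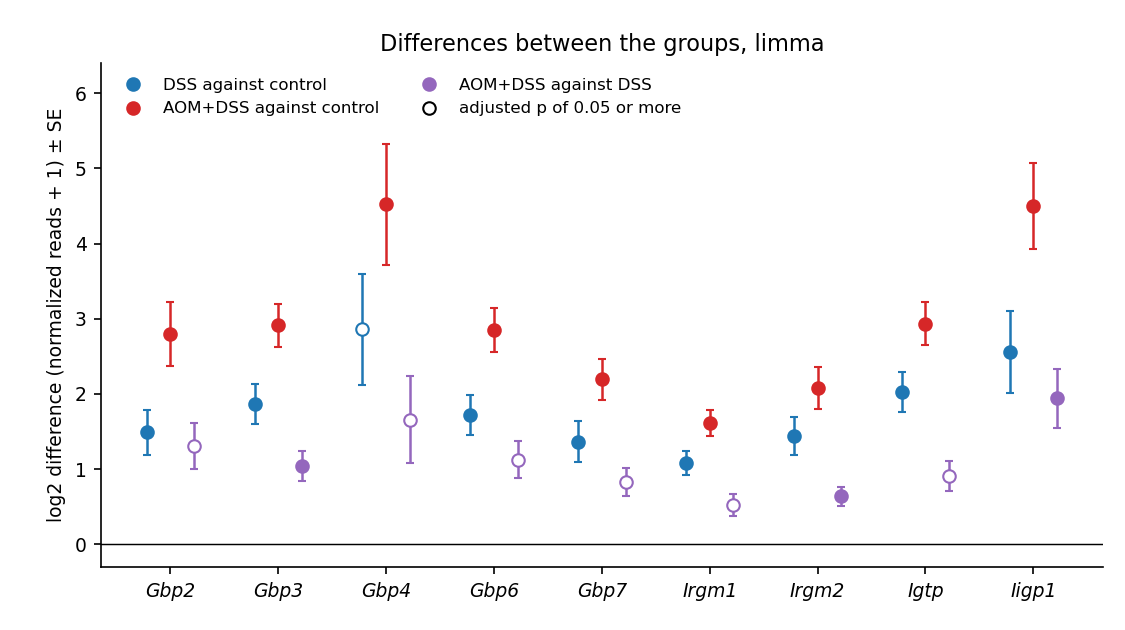
Log2 differences of normalized reads + 1 between groups for the 9 GTPases, from limma, with SE; filled points passed an adjusted p of 0.05. Gbp4 is open for DSS against control (2.86), and Gbp3, Irgm2 and Iigp1 are filled for AOM+DSS against DSS.

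Levels were compared between genes per kilobase of the longest coding transcript. In control, Irgm1 was highest at 476 ± 93.5 normalized reads per kilobase (SD, n = 3), followed by Gbp2 at 252 ± 135, Irgm2 at 208 ± 92.9 and Igtp at 207 ± 88.2, 3 neighbours whose ranges overlapped. Gbp4 was lowest at 12.5 ± 14.5 per kilobase, below Iigp1 at 37.1 ± 33.1, with overlapping ranges. In AOM+DSS, Gbp2 (1741 ± 808 per kilobase), Igtp (1522 ± 317) and Irgm1 (1450 ± 230) led, with overlapping ranges, and Iigp1 reached 702 ± 270. By mean, Iigp1 held place 8 of 9 in control, 7 in DSS and 5 in AOM+DSS. In each group its range overlapped those of the genes next to it in rank.

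The 9 genes varied together over the 10 libraries. Pearson's r of log2(normalized reads + 1) ran from 0.929 to 0.994 over 36 pairs, with a median of 0.966; the libraries fall into the 3 groups, which enter each r. Among 10764 other genes with a mean of at least 50, whose median r with the mean z-score of the 9 genes was 0.017, the closest were Gm12250 (r = 0.992), Tgtp2 (0.990), Gata3 (0.986), Id2 (0.983), Gm12185 (0.982), Cmpk2 (0.982), Ccdc88b (0.980) and Igfbp4 (0.980). Gm12250 and Tgtp2 belong to the immunity-related GTPases.

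A further list held other GTPases of these families, and also the dynamin-like Mx1 and Mx2. Of 21 further symbols, 20 were in the tables and 17 had a test. By the authors' deposited tables, 9 of 17 rose in DSS and 10 of 17 in AOM+DSS, and the median log2 fold of the tested genes was 1.87 and 2.63, against 0.02 and 0.02 over all genes tested. Gm12250 was at 69.5, 199 and 56.1 in control, at 507, 369, 487 and 399 in DSS, and at 928, 1031 and 672 in AOM+DSS. Its groups were separate, and it was higher in AOM+DSS than in DSS by 0.98 ± 0.19 (log2, SE, limma adjusted p = 0.0367). It was the 1 gene of the 17 to pass between the treatments.

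Gbp5, which is known to promote inflammasome assembly, rose 7.40-fold in DSS and 18.7-fold in AOM+DSS in the authors' deposited tables. Gm4951 rose 13.4-fold and 39.1-fold there, from 0, 15.8 and 7.41 in the control libraries, and Gbp8 rose 3.09-fold and 4.72-fold. Of the words of Gbp8, 21.2% occur in other transcripts. Tgtp2, an effector like Iigp1, rose 5.55-fold and 19.1-fold in the authors' deposited tables. Tgtp1, Gvin1 and Gm4070 were listed at 0 in every library, and each has a close copy: Tgtp1 and Tgtp2 are near-identical (89.4% of the words of Tgtp1 occur in Tgtp2), and 98.3% of the words of Gvin1 occur in Gm4070, so reads of these genes cannot be assigned with certainty. Mx2, a dynamin-like GTPase that acts against viruses, rose 3.66-fold in DSS and 3.75-fold in AOM+DSS in the authors' deposited tables, and differed by 0.04 ± 0.23 between the treatments (log2, SE, limma adjusted p = 0.956). Mx1, of the same kind, had folds of 1.79 and 1.5 and did not pass in the authors' deposited tables.

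Gm4841, Gm5431 and F830016B08Rik rose in both of the authors' deposited tables, 7.01-fold, 2.64-fold and 4.63-fold in DSS and 18.8-fold, 3.47-fold and 12.7-fold in AOM+DSS. Of the words of Gm5431, 47.6% occur in other transcripts, so its values are uncertain as to the gene. Gbp10, which shares 82.5% of its words with other transcripts, rose 7.67-fold in AOM+DSS and had a fold of 2.67 in DSS that did not pass in the authors' deposited tables. Gbp9 had folds of 4.63 and 8.25 without passing there, and its highest DSS library, a, was at 483 against 58.9 to 122 in the others. The pair 9930111J21Rik1 and 9930111J21Rik2, which share words with each other, did not pass in either of the authors' deposited tables. Gbp1, Gbp11 and Irgc1 had means of at most 13.6 normalized reads in every group and did not pass there.

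Genes of the interferon pathway were read from lists by role. Of the ligands and their inducers, 0 of 7 tested in DSS and 0 of 8 in AOM+DSS passed in the authors' deposited tables (DESeq), with 1 at an unadjusted p under 0.05 in each, and limma called 0 of 7 and 2 of 8. Ifng, which encodes interferon gamma, was at 2.90, 7.90 and 1.06 in control, at 8.69, 12.4, 1.42 and 3.10 in DSS, and at 22.3, 21.5 and 13.3 in AOM+DSS. It was higher in AOM+DSS than in control by 2.24 ± 0.62 (log2, SE, limma adjusted p = 0.045), in 3 of 3 libraries, but did not pass in the authors' deposited table (adjusted p = 0.331). Il18, an inducer of interferon gamma, had folds of 0.683 and 0.674 in the authors' deposited tables and did not pass. Receptors and kinases gave 0 of 9 calls in both of the authors' deposited tables (2 and 3 at an unadjusted p under 0.05), and limma called 0 of 8 and 3 of 9; Ifngr1, which encodes the ligand-binding chain of the interferon gamma receptor, had folds of 0.836 and 0.798 there and did not pass, and Ifngr2, the second chain, had 1.07 and 1.27.

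Among transcription factors, the authors' deposited tables call 6 of 12 higher in DSS and 7 of 12 in AOM+DSS. Nlrc5, which drives MHC class I genes, rose 6.16-fold and 8.20-fold, and Ciita, the regulator of MHC class II genes, 5.37-fold and 6.80-fold in the authors' deposited tables. Of 9 inhibitors of the pathway, 3 rose in each table and 1, Cish, fell in AOM+DSS. Usp18, which restrains signalling by type I interferon, rose 5.65-fold and 10.3-fold in the authors' deposited tables, Socs1 3.24-fold and 3.62-fold, and Socs3 2.10-fold and 2.87-fold.

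Target genes were listed by the kind of interferon response. Of 16 interferon gamma targets, the authors' deposited tables call 7 higher in DSS and 13 in AOM+DSS; Nos2, the inducible nitric oxide synthase, rose 19.2-fold and 37.3-fold, Tap1, a peptide transporter, 3.26-fold and 4.04-fold, and Psmb9, an immunoproteasome subunit, 2.63-fold and 2.99-fold. Of 22 antiviral targets, 19 rose in DSS and 20 in AOM+DSS there, among them Ifi44 (6.14-fold and 7.68-fold) and Ifit1 (3.69-fold and 4.89-fold). Oas3, a sensor of double-stranded RNA, was at 241, 623 and 209 in control, at 1887, 1442, 2242 and 1784 in DSS, and at 1934, 1703 and 2191 in AOM+DSS. Its treated groups overlapped and differed by 0.09 ± 0.17 (log2, SE, limma adjusted p = 0.837).

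Between AOM+DSS and DSS, the median log2 difference by limma was 1.04 over the 9 GTPases. It was 1.26 over the 17 other GTPases, Mx1 and Mx2 included. It was 0.53 over the 9 interferon gamma targets and 0.19 over the 19 antiviral targets whose reads were recovered in both groups, and 0.03 over all 17251 genes fitted. Limma called 1 of these 9 interferon gamma targets and 0 of the 19 antiviral targets, of which 4 had an unadjusted p under 0.05. Whether the lists differ from one another was not tested. Genes for recruitment to vacuoles and autophagy, with which these GTPases work, gave 0 of 14 calls in both of the authors' deposited tables (3 and 2 at an unadjusted p under 0.05), and limma called 0 of 10 and 2 of 14. Arhgdia and Gabarap, the 2 of the list with the highest means, had folds between 0.824 and 1.00 in the authors' deposited tables. Of 10 inflammasome and cell death genes, the authors' deposited tables call 3 higher in DSS and 5 in AOM+DSS, among them Mlkl, the executor of necroptosis (1.77-fold and 2.41-fold), and Zbp1, a nucleic acid sensor (2.25-fold and 3.12-fold). Ripk3, the kinase upstream of Mlkl, rose in AOM+DSS by a fold of 2.18, with an adjusted p = 0.00662 from the authors' deposited table, and had a fold of 1.89 in DSS that did not pass.

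**Figure D3:**
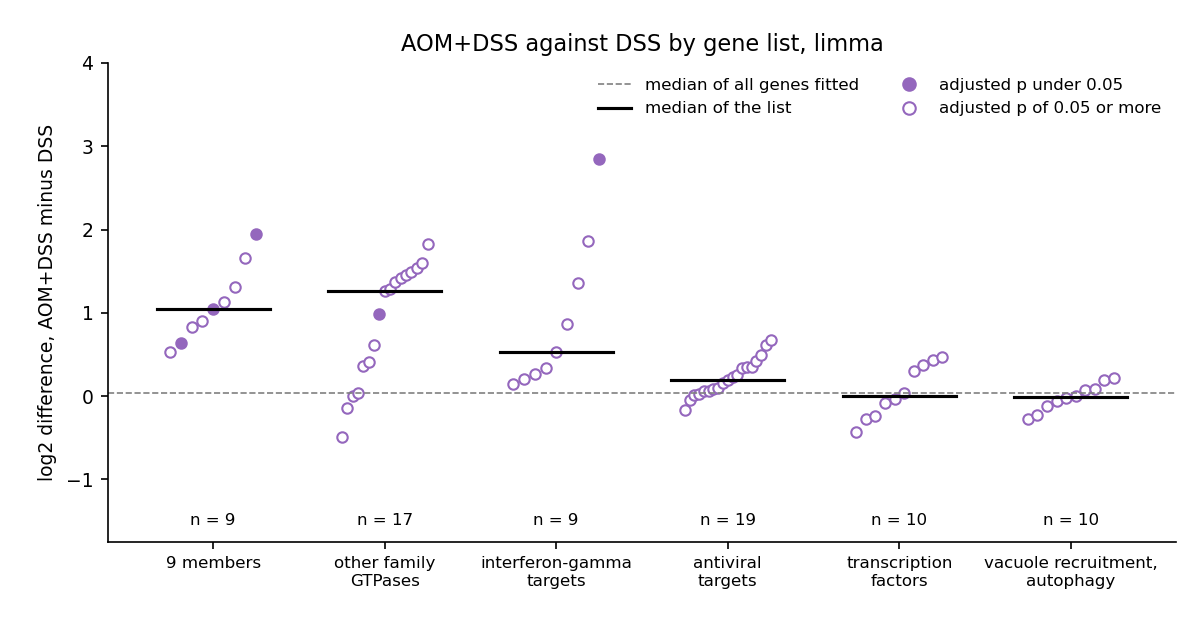
Log2 differences (AOM+DSS minus DSS, limma) of single genes by list; black bars are list medians and the dashed line is the median of all genes fitted. The median lies at 1.04 for the 9 GTPases and at 0.19 for the antiviral targets.

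Markers of other cell types moved with some of these libraries. The summed markers of T and NK cells (17 of 18 listed genes) ranged from 307 to 1236 normalized reads in control, 908 to 5974 in DSS and 1035 to 1519 in AOM+DSS. Gzmb was at 0 in control library a, Cd4 and Ncr1 in control library c and Prf1 in DSS library d, and the other markers were detected in every library. Control library b and DSS library a were the highest of their groups, as they were for 9 and 6 of the GTPases. In AOM+DSS the order differed: library c had the highest sum (1519) and was the lowest for 9 of 9 GTPases. B and plasma cell markers reached 3484 in control library b, 16417 in DSS library a and 5712 in AOM+DSS library c, each the highest of its group. Without control library b and DSS library a, limma called 9 of 9 GTPases in DSS against control. That fit was chosen after seeing the data, and leaving out control library b alone also gave 9 of 9. It is therefore no test of the part of these cells.

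Myeloid markers (16 of 18 listed genes) summed to 1615 to 3824 in control, 3468 to 10510 in DSS and 6996 to 13895 in AOM+DSS, and the treated groups overlapped. Control libraries a to c were at 1625, 3824 and 1615, and AOM+DSS libraries a to c at 8290, 13895 and 6996. Within each of these groups the libraries ranked as by their GTPase sums. In DSS, library a was highest for both, but library b, lowest by GTPase sum, had more myeloid marker reads (7520) than libraries c (3468) and d (3614). By the authors' deposited tables, 3 of 16 rose in DSS and 10 of 16 in AOM+DSS, and limma called 2 and 15. Between AOM+DSS and DSS their median log2 difference by limma was 1.73, against 1.04 for the 9 GTPases, with 0 called and 10 of 16 at an unadjusted p under 0.05. Fibroblast markers summed to 651 to 3065 in control, 779 to 2173 in DSS and 6184 to 8445 in AOM+DSS, which stood apart from both. AOM+DSS libraries a to c were at 6591, 8445 and 6184 for fibroblast markers, again ranked as by their GTPase sums. In control and DSS the highest library was the same for both sums, and the order below it differed. The members of that list did not move alike: by the authors' deposited tables Fn1 (fibronectin) and Vim (vimentin) rose 13.6-fold and 11.5-fold in AOM+DSS, while Pdgfrb, a growth factor receptor, fell in DSS (0.467-fold) and in AOM+DSS (0.399-fold). AOM+DSS library c, the lowest of its group for all 9 GTPases, had a smooth muscle marker sum of 14744, while the other libraries had 1502 to 3102. The part of these cells in the GTPase values was not tested.

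**Figure D4:**
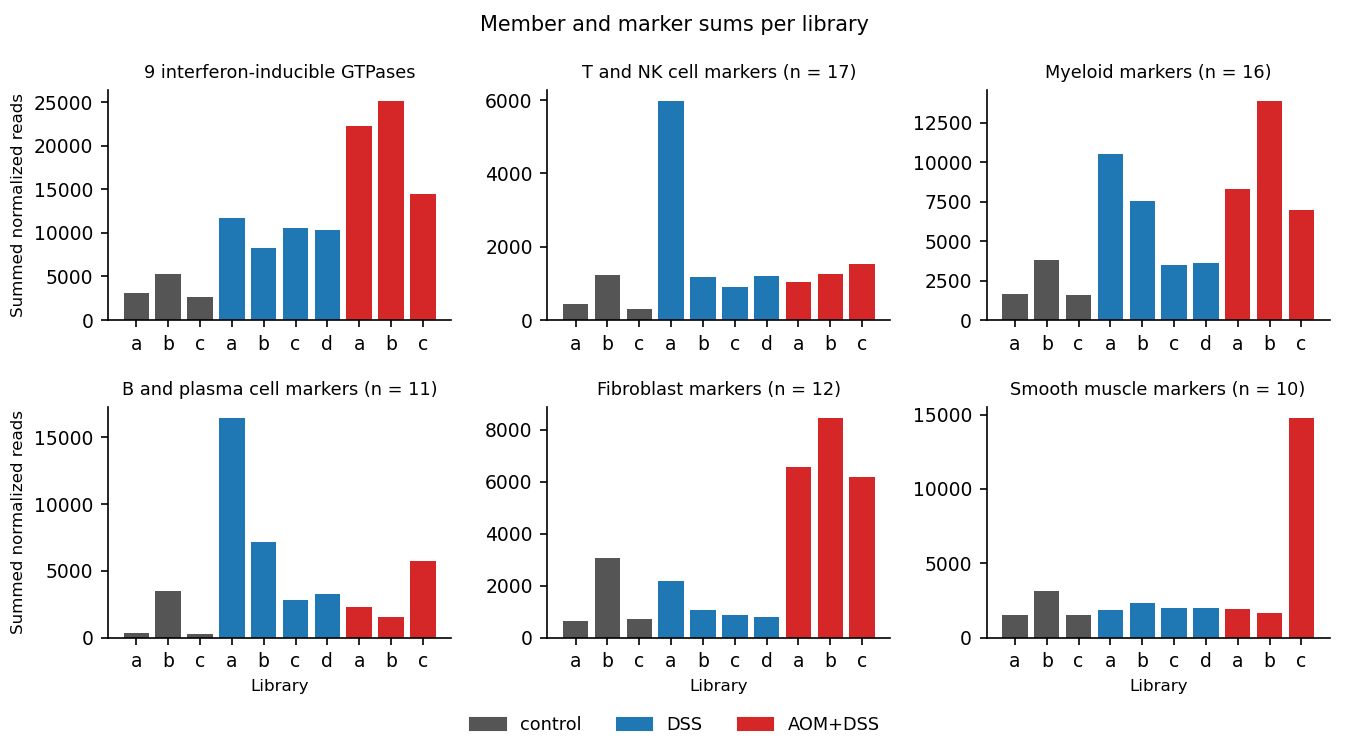
Summed normalized reads per library of the 9 GTPases and of 5 marker lists; n is the number of marker genes summed, and colours are groups. The GTPase sums step up from control to DSS to AOM+DSS, while the T and NK cell sum is highest in DSS library a (5974).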

How the data were processed

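The authors mapped reads to mm9 with TopHat2 2.0 and compared groups with DESeq, per the submitters' processing notes; the sources used here name neither the counter nor the annotation. Per the file headers, each of 2 deposited tables holds means of normalized read counts over both groups and over each (signal), their ratio or fold change and its log2. The deposited p-values are DESeq's, with the authors' adjusted values beside them. One header gives AOM+DSS 4 replicates, but only 3 samples carry that label.

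Each library adds whole reads over its size factor to a group mean, and a mean printed to many digits usually allows 1 combination of reads. Ambiguous cases were settled by other printed values and by the authors' p, recomputed by the exact test that the authors' tool runs. For Gbp2, Irgm1, Irgm2 and Igtp in DSS the p settled the reads; for Irgm1 and Irgm2, whose printed p used a larger fitted dispersion, the reads kept were the only ones the p allowed. Reads were recovered for 99.36% of genes in control, 95.17% in DSS and 99.62% in AOM+DSS. Of 15120 genes with 1 combination left before p was used, the recomputed p contradicted 0. For 3683 of these genes the recomputed p was the printed one. For the other 11437 the printed p was taken to use a larger fitted dispersion. There the check could exclude only reads of too high scatter, so it is no check against wrong reads of low scatter. On simulated means, 1481 to 1497 of 1500 genes were recovered per group, with 0 wrong. The means simulated for DSS and AOM+DSS were drawn below those of Gbp2, Irgm1, Irgm2 and Igtp in these groups. The choice by p was not simulated, so the simulation is no check of the reads of these genes in DSS.

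Limma 3.58.1 (R 4.3.3, trend) was fitted to log2(normalized reads + 1), a pseudocount of 1, per pair of groups, with Benjamini-Hochberg adjustment over all genes fitted and a threshold of 0.05. On simulated data it found 58 of 100 genes changed 2-fold and 100 of 100 changed 4-fold for DSS against control, among 16967 genes. For AOM+DSS against control it found 44 of 100 and 100 of 100, and AOM+DSS against DSS was not simulated. The simulated dispersion was 0.05, above the pooled dispersion of Gbp7, Irgm1 and Irgm2. It was below that of the other members, which reached 0.642 for Gbp4, so these rates do not carry over to them. Named genes were the 9 members, all measured genes of the family list, up to 3 called genes per other list by smallest adjusted p (the 2 with the highest means where none was called), and the 8 genes most like the members over the libraries. One gene of the transcription factor list is not reported here. Cish was named after its values were seen. The members and lists were chosen with earlier results of these data known.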

Additional observations from a re-analysis of the deposited data

Results flagged for a closer look

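DSS library a stood apart from the other 3 DSS libraries for 6 genes, by the gap to the nearest library over the range of the group. Its normalized reads were 684 for Gbp4, 390 for Gbp8, 483 for Gbp9, 11.1 for Gbp11, 337 for 9930111J21Rik1 and 1247 for Ciita. This came from 49 groups tested, and chance marks about 1 in 20. Gbp4, Gbp8, Gbp9 and Gbp11 neighbour each other on chromosome 5, and exons of Gbp4 overlap those of Gbp8 (61 bases) and Gbp9 (60 bases). The flags are therefore not separate observations, and all came from DSS library a. The same library had the highest sums of T and NK cell markers (5974) and of B and plasma cell markers (16417); their part in these values was not tested.

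Gbp3, Irgm2 and Iigp1 differed between AOM+DSS and DSS in limma, by 1.04, 0.64 and 1.94 on the log2 scale, with all 3 AOM+DSS libraries above all 4 DSS libraries. That separation held for 8 of the 9 GTPases and for 8.32% of genes fitted, so it does not set these genes apart. Their limma adjusted p of 0.0346, 0.0454 and 0.0476 lay near the threshold, and leaving out 1 library gave 0 to 6 called genes.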

How the results depend on the processing

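No value of a GTPase changed direction under any alternative run. For DSS against control, 97 of 117 limma values stayed on their side of the threshold, 17 lost the call and 3 gained it; leaving out 1 library gave 2 to 9 called genes. For AOM+DSS against control, 95 of 99 stayed and 4 lost the call, with 7 to 9 called genes. For AOM+DSS against DSS, 83 of 108 stayed, 20 lost the call and 5 gained it. Leaving out 1 library gave 0 to 6 called genes, and a pseudocount of 10 gave 1. A fit of all 3 groups together gave 0, with 9 at an unadjusted limma p under 0.05 (share over all genes not given). The cause was not tested. The fit without control library b and DSS library a was chosen after seeing the data. No paired analysis was possible because nothing links a recovered library to a numbered sample. Depth limits Gbp4 most, with 16 reads in control library c.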
